A study of Mus musculus with 6 samples.

Results

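The 10 genes described here are transcripts that neutrophils are known for, S100a8, S100a9, Csf3r, Cxcr2, Retnlg and Clec4d, and the genes of chemokines that bind CXCR2, Cxcl1, Cxcl2, Cxcl3 and Cxcl5. They were taken by symbol from the 55536 genes that the deposited tables list, and each symbol matched 1 row. RNA sequencing was run on 6 tumors of B16, a melanoma line of C57BL/6 mice, which grew under the skin of C57BL/6J mice from about 100000 injected cells and were taken on day 13. In 3 tumors the injected cells carried a vector control and in 3 they are labelled as knockout for ATM, a kinase of the DNA damage response. The label places the knockout in the tumor cells, not in the host. The labels leave unsaid how the gene was disrupted, whether the knockout cells were 1 clone or a pool, and whether any tumors shared a mouse. Genotype and cell line therefore cannot be told apart, and p-values measure the spread between these 6 tumors only.

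Neutrophils are short-lived white blood cells that leave the bone marrow under the influence of the growth factor G-CSF, whose receptor is encoded by Csf3r. They follow gradients of CXC chemokines that carry a glutamate-leucine-arginine motif and bind the receptor CXCR2, and in tumors such chemokines are made by tumor cells, macrophages, fibroblasts and endothelium, largely under control of NF-kB. S100a8 and S100a9 encode the subunits of calprotectin, an abundant cytosolic protein of neutrophils and inflammatory monocytes. Retnlg encodes a resistin-like protein of neutrophils, and Clec4d encodes a C-type lectin receptor of neutrophils, monocytes and macrophages. All 10 RNAs would come from host or tumor cells in one mixture, and in such bulk samples fewer cells of a type and less RNA per cell cannot be told apart.

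Atm itself stood at 111, 107 and 95.5 CPM under vector control and 97.2, 132 and 107 CPM in the libraries labelled ATM knockout (log2 fold change 0.10 ± 0.13, edgeR adjusted p = 0.707), where CPM are counts scaled to library size and TMM factor. Its RNA level therefore did not separate the groups, and gene counts show neither a small edit nor the protein. The groups are named here by their labels, which these counts do not check. Counts on genes summed to 22101124 to 29037715 per library. The melanoma markers fixed for this work (all 10 tested) summed to 19930 to 28600 CPM. Libraries stood apart in other tissue: vector control tumor 1 had the lowest fibroblast marker sum (332 CPM, against 1555 to 3360 in the other 5), and skeletal muscle markers summed to 25.5 and 63.5 CPM in vector control tumors 1 and 2 against 606 to 7284 in the rest. Of 15696 genes tested with edgeR's quasi-likelihood test, 347 were higher and 431 lower in the knockout tumors at a Benjamini-Hochberg adjusted p below 0.05. With library size as the only scaling the split was 504 higher and 356 lower. The 778 calls made with TMM scaling became 1209, 28 and 110 without vector control tumors 1, 2 and 3, and 2, 42 and 196 without ATM knockout tumors 1, 2 and 3.

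None of the 10 genes passed that test, against 4.96% of all genes tested (2.21% higher and 2.75% lower). edgeR gave 1 of them, S100a9, an unadjusted p below 0.05, against 23% of all genes; DESeq2 and limma-voom, which called 13.2% and 4.42% of all genes, also called none, with 1 and 2 genes at an unadjusted p below 0.05, and DESeq2 gave no adjusted p for 4 of the 10. All 10 passed the filter on low counts. Log2 fold changes were below 0 for 9 of the 10, against 50.9% of all genes tested, and their median was -0.84, against -0.01 over all genes. With library size as the only scaling Csf3r took the other sign, which left 8 below 0. It was 7 with limma-voom, with a block for replicate number and without vector control tumor 3. All 10 were below 0 without vector control tumor 1, vector control tumor 2 or knockout tumor 3. Some of these genes varied together across the tumors, so the signs are not separate observations. These were low transcripts: mean levels over the 6 tumors ran from 0.524 CPM for Cxcl3, above 3.78% of the genes tested, to 11.7 CPM for Csf3r, above 38.9% of them.

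**Figure D1:**
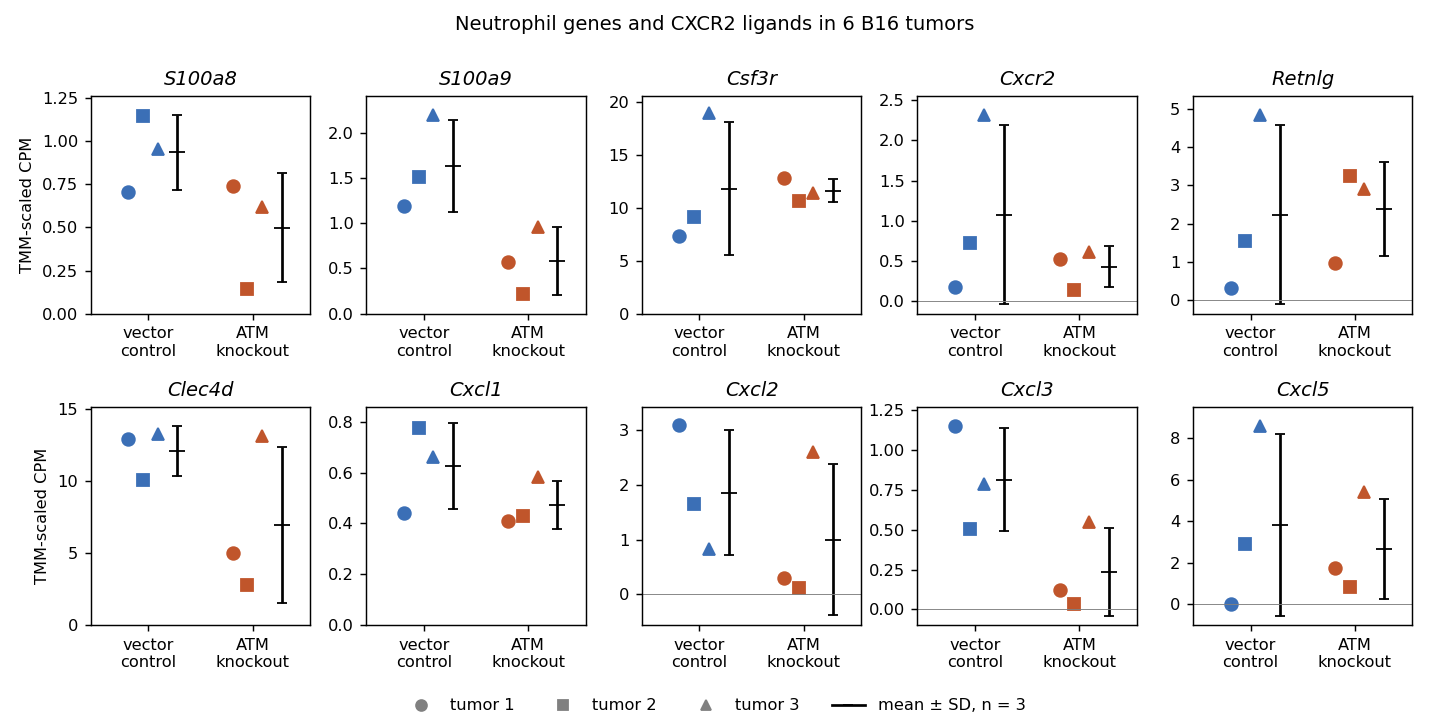
Level of each of the 10 genes in each tumor, in TMM-scaled CPM (vertical axes include 0 and differ between panels), for vector control (blue) and ATM knockout (orange) tumors, with the mean and SD of 3 tumors as bars beside the points. The groups overlap in every panel except that of S100a9, and ATM knockout tumors 1 and 2 are the lowest of the 6 in the panels of S100a9, Clec4d, Cxcl2 and Cxcl3.

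The 4 chemokine genes lie on the plus strand of chromosome 5 (GRCm38, GENCODE M21): Cxcl5 (ENSMUSG00000029371.7) at 90759360 to 90761624, Cxcl3 (ENSMUSG00000029379.10) at 90786103 to 90789600, Cxcl1 (ENSMUSG00000029380.11) at 90891241 to 90893115 and Cxcl2 (ENSMUSG00000058427.10) at 90903871 to 90905938. No exon of another gene overlaps their exons. Cxcl1, Cxcl2 and Cxcl3 resemble one another in sequence, and reads that align to several places may be missing from the counts. The windows from 250 to 31 bases before their RefSeq starts are shown because the 3 genes, which did not share 1 pattern across the tumors, carry the same NF-kB letters there. Each is printed 5′ to 3′ on the plus strand of GRCm38.p6, from the RefSeq promoter table, with matches to the NF-kB motif in capitals.
Cxcl1, chr5:90890995-90891214: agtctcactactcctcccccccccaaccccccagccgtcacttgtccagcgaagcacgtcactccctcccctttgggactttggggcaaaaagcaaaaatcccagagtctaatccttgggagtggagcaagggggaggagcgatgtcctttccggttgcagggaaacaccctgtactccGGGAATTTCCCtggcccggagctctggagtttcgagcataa
Cxcl2, chr5:90903649-90903868: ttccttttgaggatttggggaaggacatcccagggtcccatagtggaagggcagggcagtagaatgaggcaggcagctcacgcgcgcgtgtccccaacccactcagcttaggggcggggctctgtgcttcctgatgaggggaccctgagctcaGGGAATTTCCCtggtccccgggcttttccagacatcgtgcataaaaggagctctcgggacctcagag
Cxcl3, chr5:90785851-90786070: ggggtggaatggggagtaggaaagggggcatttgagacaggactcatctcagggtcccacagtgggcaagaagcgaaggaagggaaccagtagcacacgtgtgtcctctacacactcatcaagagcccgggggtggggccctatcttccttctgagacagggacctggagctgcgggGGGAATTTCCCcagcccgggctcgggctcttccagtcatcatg
All 3 windows hold GGGAATTTCCC, which matches the motif on both strands at positions that overlap, starting 71, 97 and 73 bases before the start of Cxcl1, Cxcl2 and Cxcl3. Of 32851 promoter windows of that length, 6.34% hold a match on either strand. The windows of Cxcl2 and Cxcl3 were 55.0% identical in a global alignment, those of Cxcl1 and Cxcl2 47.0% and those of Cxcl1 and Cxcl3 49.2%. No match to the AP-1 motif TGANTCA or the C/EBP motif TTGCNNAA was found in these 3 windows on either strand, while 6.12% and 8.78% of all windows hold one. Of the other members with a window (Cxcl5 has none in the table), Csf3r had a match to the NF-kB motif, S100a9 and Retnlg each had 1 to C/EBP, and S100a8, Cxcr2 and Clec4d had none of the 3. A match is a description of the letters and not a measured site.

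Cxcl2, the main CXCR2 ligand of activated macrophages, gave counts of 70, 36 and 20 under vector control (tumors in the order 1, 2, 3) and 7, 3 and 76 under ATM knockout, or 3.10, 1.65 and 0.828 CPM against 0.287, 0.107 and 2.60 CPM. Knockout tumors 1 and 2 were the lowest of the 6, and knockout tumor 3 lay above 2 of the 3 controls. Its log2 fold change was -0.88 ± 1.11 (SE), with a 95% interval from -3.62 to 1.86 and an edgeR adjusted p of 0.716. Without knockout tumor 3 the value was -3.21 (adjusted p = 0.109), and without vector control tumor 1 it was -0.28 (adjusted p = 0.923).

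Cxcl3, a close relative of Cxcl2, gave counts of 26, 11 and 19 under vector control and 3, 1 and 16 under ATM knockout, or 1.15, 0.503 and 0.786 CPM against 0.123, 0.0358 and 0.548 CPM. The order within the knockout group was that of Cxcl2, and only knockout tumor 3 reached into the control range. With so few reads, the single count in knockout tumor 2 has an exact 95% Poisson interval of 0.0253 to 5.57 counts, which covers counting error only. Its log2 fold change was -1.74 ± 0.80 (95% interval -3.67 to 0.19, edgeR adjusted p = 0.261), and -3.31 without knockout tumor 3 (adjusted p = 0.0841).

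Cxcl1, made by epithelial, stromal and myeloid cells under inflammation, gave counts of 10, 17 and 16 under vector control and 10, 12 and 17 under ATM knockout. Its highest tumor was 1.90 times its lowest in CPM, and at these low counts the spread over the 6 tumors was no larger than counting noise (chi-square of 0.955 for each of 5 degrees of freedom), so differences between tumors were not detectable at this depth. At 0.442, 0.777 and 0.662 CPM against 0.410, 0.430 and 0.582 CPM, the groups overlapped (log2 fold change -0.40 ± 0.33, 95% interval -1.20 to 0.41, edgeR adjusted p = 0.551).

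Cxcl5, a ligand of epithelial and stromal cells, gave counts of 0, 64 and 208 under vector control (tumors in the order 1, 2, 3) and 43, 24 and 158 under ATM knockout, or 0, 2.93 and 8.61 CPM against 1.76, 0.859 and 5.41 CPM. The 0 was in vector control tumor 1, which had the lowest marker sums of fibroblasts, of leukocytes and of monocytes and macrophages. That count allows up to 3 counts or 0.133 CPM by the one-sided limit for a count of 0 (3.69 counts by the two-sided 95% Poisson interval). The log2 fold change of -0.52 ± 1.46 had a 95% interval from -4.16 to 3.11 (edgeR adjusted p = 0.886) and lay above 0 without vector control tumor 3 (0.88) and with limma-voom (1.29).

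Cxcr2 (ENSMUSG00000026180.8, chromosome 1, 74153989 to 74161246, plus strand), the receptor that these ligands share, gave counts of 4, 16 and 56 under vector control and 13, 4 and 18 under ATM knockout. In CPM this was 0.177, 0.732 and 2.32 against 0.533, 0.143 and 0.616. The knockout tumors lay inside the control range except knockout tumor 2, which was the lowest of all. The log2 fold change of -1.32 ± 0.93 (95% interval -3.59 to 0.95, edgeR adjusted p = 0.472) rested on vector control tumor 3, and without it was -0.06 (adjusted p = 0.974). Cxcr1, the other receptor of this kind, had 1 count in vector control tumor 2, 2 in ATM knockout tumor 3 and 0 in the remaining 4.

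Csf3r (ENSMUSG00000028859.14, chromosome 4, 126024550 to 126044440, plus strand) had the highest mean CPM of the 10 over all 6 tumors, although Clec4d was above it in vector control tumors 1 and 2 and in knockout tumor 3. It gave counts of 165, 200 and 457 under vector control and 312, 296 and 334 under ATM knockout, or 7.30, 9.15 and 18.9 CPM against 12.8, 10.6 and 11.4 CPM. The 3 knockout tumors lay close together, between the control extremes. Its log2 fold change was -0.02 ± 0.36 (95% interval -0.89 to 0.84, edgeR adjusted p = 0.983) and turned to 0.51 without vector control tumor 3 (adjusted p = 0.172). Csf3, the gene of its ligand, had at most 2 counts in any tumor and was not tested.

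S100a9 (ENSMUSG00000056071.12, chromosome 3, 90692632 to 90695721, minus strand) was the only one of the 10 genes whose groups did not overlap, a state that 29.7% of all genes tested shared. It gave counts of 27, 33 and 53 under vector control and 14, 6 and 28 under ATM knockout, or 1.19, 1.51 and 2.19 CPM against 0.574, 0.215 and 0.958 CPM. Means were 1.63 ± 0.511 and 0.582 ± 0.372 CPM (SD, n = 3 per group). The log2 fold change was -1.48 ± 0.53 with a 95% interval from -2.75 to -0.20, and the edgeR adjusted p over all genes was 0.165 (0.124 to 0.395 over all alternatives tried). Leaving out 1 tumor moved it between -2.05 and -1.09.

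S100a8 (ENSMUSG00000056054.9, chromosome 3, 90668978 to 90670035, plus strand), its partner subunit, gave counts of 16, 25 and 23 under vector control and 18, 4 and 18 under ATM knockout. At 0.708, 1.14 and 0.952 CPM against 0.738, 0.143 and 0.616 CPM, the groups overlapped and knockout tumor 2 stood lowest. Its log2 fold change was -0.91 ± 0.56 (95% interval -2.24 to 0.43, edgeR adjusted p = 0.398), and -0.47 without knockout tumor 2. The log2 ratio of S100a8 to S100a9 CPM was -0.74 ± 0.38 in the control tumors and -0.22 ± 0.48 in the knockout tumors (SD, n = 3 per group, exact permutation p = 0.3, adjusted 0.563).

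Clec4d (ENSMUSG00000030144.4, chromosome 6, 123262111 to 123275265, plus strand) gave counts of 292, 220 and 320 under vector control and 122, 77 and 383 under ATM knockout. These were 12.9, 10.1 and 13.2 CPM against 5.0, 2.76 and 13.1 CPM: 2 knockout tumors lay below every control, and knockout tumor 3 lay near the top of the control range. The log2 fold change was -0.79 ± 0.55 (95% interval -2.15 to 0.56, edgeR adjusted p = 0.466). Without knockout tumor 3 it was -1.63 ± 0.32 (adjusted p = 0.078).

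Retnlg (ENSMUSG00000022651.6, chromosome 16, 48872621 to 48874496, plus strand) gave counts of 7, 34 and 117 under vector control and 24, 91 and 85 under ATM knockout, or 0.31, 1.55 and 4.84 CPM against 0.984, 3.26 and 2.91 CPM. It was the only one of the 10 with a fold change above 0, at 0.09 ± 0.92 (95% interval -2.17 to 2.35, edgeR adjusted p = 0.971). That sign turned without vector control tumor 1 (-0.42), vector control tumor 2 (-0.10), knockout tumor 2 (-0.22) or knockout tumor 3 (-0.08), and the value was 1.37 without vector control tumor 3.

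**Figure D2:**
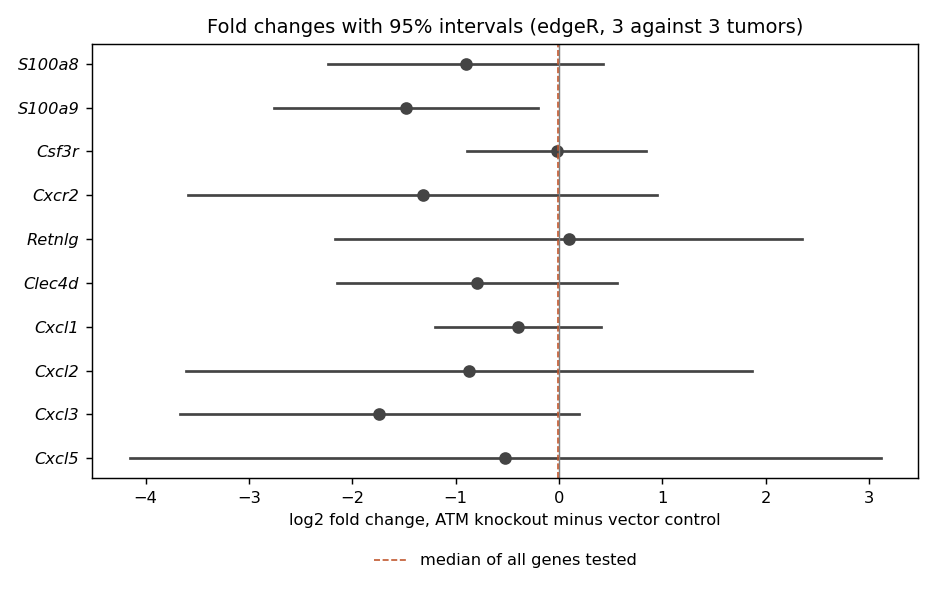
Log2 fold change of each gene, ATM knockout minus vector control (horizontal axis), with its 95% interval from edgeR (lines) and the median of all genes tested (dashed). Only the interval of S100a9, from -2.75 to -0.20, lies on 1 side of 0, before any adjustment over the genes tested.

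**Figure D3:**
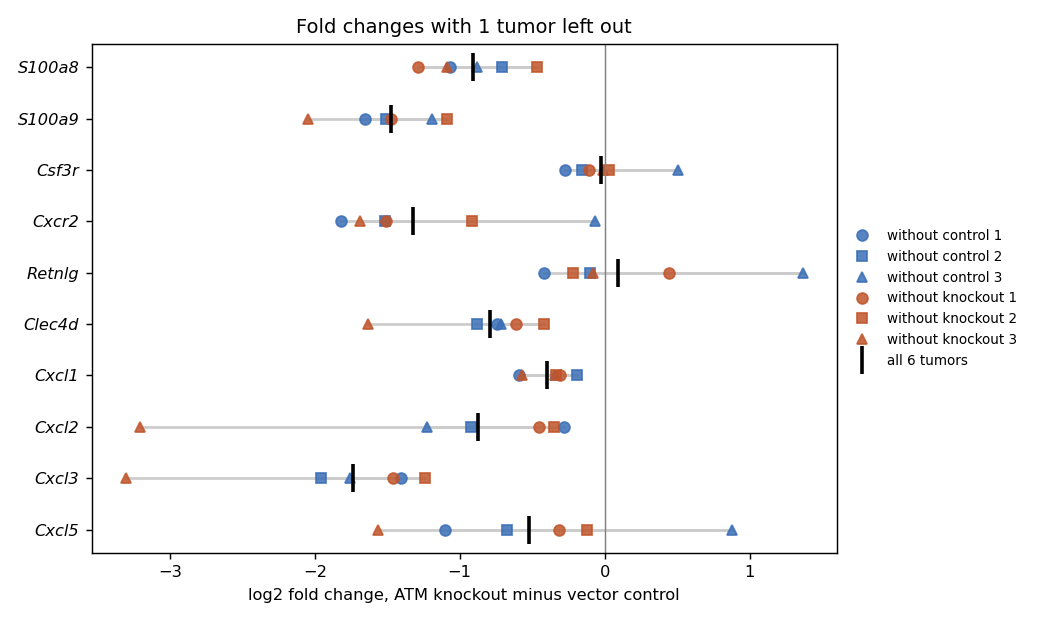
The same log2 fold changes (horizontal axis) with all 6 tumors (black bars) and with each tumor left out in turn (blue for a control tumor, orange for a knockout tumor). Cxcl2, Cxcl3 and Clec4d are farthest below 0 without knockout tumor 3, at -3.21, -3.31 and -1.63, and Cxcr2 comes closest to 0 without vector control tumor 3, at -0.06.

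Per base of exon, over all 6 tumors, Clec4d was highest at 5.95 ± 2.86 RPKM (CPM per kilobase of the union of exons, SD, n = 6). Retnlg (3.895 ± 2.82), Csf3r (3.24 ± 1.11), S100a9 (2.12 ± 1.34), Cxcl5 (1.75 ± 1.73) and S100a8 (1.03 ± 0.489) followed, all in RPKM. The lowest levels were those of Cxcl2 (0.69 ± 0.597 RPKM), Cxcl1 (0.294 ± 0.0795 RPKM), Cxcr2 (0.247 ± 0.263 RPKM) and Cxcl3 (0.15 ± 0.119 RPKM). Each neighboring pair in this order differed by less than the larger SD of the pair. Some, such as Cxcl2 and Cxcl1, differed by more than the smaller SD. The union of annotated exons of Cxcl1, Cxcl2 and Cxcl3 also covers their introns. Per length of the longest protein-coding transcript, a setting added after the data were seen, these genes were at 0.578, 0.768 and 0.516 RPKM.

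The cell type was checked against further neutrophil genes. Of 15 granule genes 7 were too low to test. Among these Ngp, Camp, Ltf, Elane and Mpo, which immature neutrophils express most, had between 0 and 4 counts in every library. Ly6g, the defining surface antigen of mouse neutrophils, gave counts of 3, 0 and 1 under vector control and 0 in each knockout tumor. Counts of Prtn3, the gene of proteinase 3, were 2 to 20. The 8 granule genes that were tested reached higher counts in at least some libraries. Padi4, the gene of a histone-modifying enzyme of neutrophils, had 21 to 207 counts per library, Chil3 129 to 340 and Mmp9 9 to 176. Ltb4r1, a leukotriene B4 receptor gene, had 31 to 148, Mmp8 10 to 85, Lcn2 2 to 77, Cd177 4 to 62 and Cebpe 3 to 35. In single libraries Lcn2, Cd177 and Cebpe were thus as low as Prtn3. Macrophages also express Chil3 and Mmp9, and monocytes and macrophages express Csf3r and Clec4d. Which cells carried these transcripts was not tested. Monocyte and macrophage markers (15 of 15 tested) summed to 702 to 2049 CPM in the control tumors and 1295 to 1664 CPM in the knockout tumors, with no member called by edgeR, DESeq2 or limma-voom and none at an unadjusted edgeR p below 0.05.

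None of the 8 tested granule genes was called by edgeR, DESeq2 or limma-voom; 7 were below 0, and the median log2 fold change was -0.34. The smallest p-values belonged to Mmp8, a collagenase of neutrophil granules, at 2.38 ± 1.5 CPM under vector control and 0.82 ± 0.471 CPM under ATM knockout (-1.52, edgeR adjusted p = 0.238), and to Lcn2, an iron-scavenger gene, at 1.79 ± 1.57 and 0.348 ± 0.126 CPM (-2.34, adjusted p = 0.250). No granule gene had an unadjusted edgeR p below 0.05, and DESeq2 gave 2 such values. Of 14 tested genes of mature neutrophils none was called by the same 3 tools, and 10 were below 0 (median -0.23). Mxd1 had the smallest p (41.9 ± 1.89 and 35.6 ± 3.58 CPM, -0.23, adjusted p = 0.202) and was 1 of 14 with an unadjusted edgeR p below 0.05, against 23% of all genes. Wfdc21, next by p, gave counts of 1, 50 and 51 under vector control and 3, 0 and 16 under ATM knockout (-2.67, edgeR adjusted p = 0.331). Slfn4, an interferon-responsive myeloid gene, was at 51.6 ± 18.0 and 35.5 ± 12.2 CPM (-0.54, adjusted p = 0.411), and Trem1, an amplifying receptor of neutrophils and monocytes, at 0.99 ± 0.427 and 0.54 ± 0.338 CPM.

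Among 18 genes of NF-kB, interleukin-1 and TNF signaling, which induce CXCR2 ligands, 14 were below 0 (median -0.20). edgeR called none of them, and 4 of 18 had an unadjusted p below 0.05 (Il1b, Ikbkb and Tnfaip3 with lower and Nfkb2 with higher levels), a share near the 23% of all genes tested. limma-voom called none, and DESeq2 called 2, Il1b and Ikbkb, lower, where it called 13.2% of all genes. Il1b, the gene of interleukin-1 beta, gave counts of 111, 82 and 77 under vector control and 44, 37 and 75 under ATM knockout (3.95 ± 0.878 and 1.90 ± 0.626 CPM, log2 fold change -1.05, edgeR adjusted p = 0.112). The groups did not overlap for 4 of the 18 genes, against 29.7% of all genes tested. These were Il1b and Ikbkb, a kinase subunit that activates NF-kB (111 ± 4.27 and 95.3 ± 3.26 CPM, -0.22, adjusted p = 0.112), Tnfaip3, a feedback inhibitor (24.8 ± 2.46 and 16.1 ± 5.12 CPM, -0.62, adjusted p = 0.178) and Nfkb2, the gene of the p100 subunit (48.7 ± 3.57 and 58.2 ± 6.84 CPM, 0.26, adjusted p = 0.209).

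The remaining lists gave no edgeR call. In the list of other chemokines and receptors of the family 5 of 6 tested genes were below 0 (median -0.37), with none at an unadjusted edgeR p below 0.05, 2 such values by DESeq2 and no call by either other tool. Ppbp, a CXCR2 ligand of platelets, gave counts of 20, 7 and 57 under vector control and 3, 1 and 16 under ATM knockout (-2.29, adjusted p = 0.250). Pf4, another platelet chemokine, was at 17.0 ± 11.1 and 7.71 ± 4.15 CPM. In the G-CSF and granulopoiesis list 9 of 11 were below 0 (median -0.15), with Cebpb first (3.55 ± 0.518 and 2.34 ± 0.65 CPM, -0.60, adjusted p = 0.248), none at an unadjusted edgeR p below 0.05 and no call by DESeq2 or limma-voom. Of 12 genes of calprotectin receptors and other S100 proteins 5 were below 0 (median 0.04). S100a1, which lies outside calprotectin, was at 50.9 ± 12.0 and 80.1 ± 13.4 CPM (0.65, adjusted p = 0.117), and was 1 of 12 with an unadjusted edgeR p below 0.05 and 1 of 12 called by DESeq2. Of 11 genes around Clec4d 6 were below 0 (median -0.01). Clec4n, the gene of Dectin-2, was at 13.6 ± 7.54 and 5.55 ± 1.11 CPM (-1.29, adjusted p = 0.144) and was 1 of 11 with an unadjusted edgeR p below 0.05 and 1 of 11 called by DESeq2. In both the S100 and the Clec4d list these counts lie below the shares over all genes tested, 23% at an unadjusted p below 0.05 and 13.2% called by DESeq2. limma-voom called none in these last 2 lists. Clec4e, the gene of Mincle, which pairs with the CLEC4D protein, gave counts of 239, 192 and 129 under vector control and 101, 76 and 262 under ATM knockout.

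Across the 6 tumors the members took more than 1 pattern. In Cxcl2, Cxcl3, Clec4d and S100a9 knockout tumors 1 and 2 were the lowest of the 6, whereas Cxcl5, Retnlg and Csf3r were lowest in vector control tumor 1 and highest in vector control tumor 3. Over these 6 points, which differ in depth and tissue mix, Pearson's r of log2 CPM was 0.97 between Clec4d and Cxcl3 and 0.91 between Cxcl2 and Cxcl3. These are descriptions of 6 tumors and carry no p.

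Erythroid markers shared the lowest tumors of the first pattern. Their summed level was 577, 62.0 and 735 CPM under vector control (tumors in the order 1, 2, 3) and 20.1, 8.95 and 455 CPM under ATM knockout. Knockout tumors 1 and 2 were thus lowest there too. Among the controls, tumor 2 was lowest in the erythroid sum, in Cxcl3 and in Clec4d, but tumor 3 in Cxcl2 and tumor 1 in S100a9. All 7 markers of that list had counts, 5 were tested and all 5 were below 0, with none called by the 3 tools and none at an unadjusted p below 0.05. Platelet markers (3 of 9 tested, Gp1bb at 0 throughout) summed to 12.2, 18.3 and 33.2 CPM in the controls and 6.15, 7.95 and 15.5 CPM in the knockout tumors. The part of blood content in the levels of Cxcl2, Cxcl3, Clec4d and S100a9 was not tested. The second pattern went with leukocyte and stromal markers: the 12 pan-leukocyte markers summed to 712, 972 and 1305 CPM in the controls and 1156, 934 and 1186 CPM in the knockout tumors, and the 10 fibroblast markers to 332, 2335 and 3360 CPM and 1580, 1809 and 1555 CPM. Their part in the levels of Cxcl5, Retnlg and Csf3r was not tested. Of 16 keratinocyte markers Krt5, Krt14, Krt1, Krt6a, Lor and Dsg3 were at 0 in all libraries and the list summed to 3.98 to 6.36 CPM in the controls and 5.15 to 6.02 CPM in the knockout tumors. Epidermis also makes calprotectin when inflamed.

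**Figure D4:**
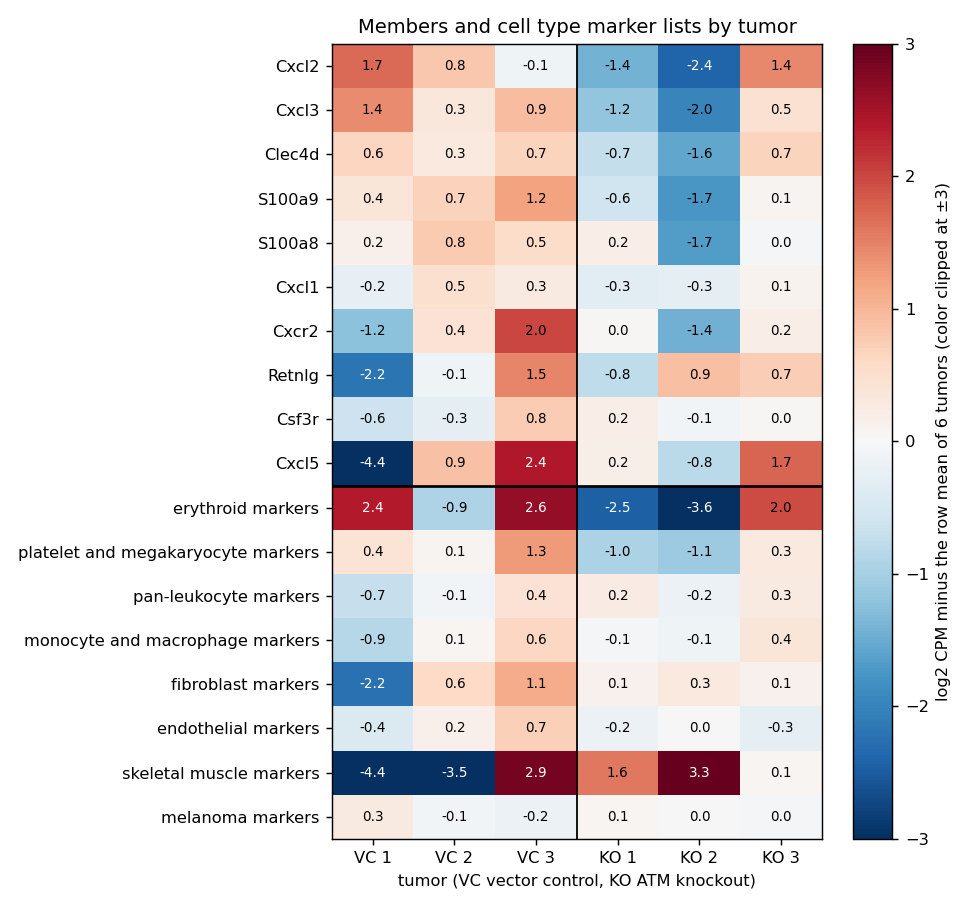
Log2 CPM of the 10 genes and mean log2 CPM of 8 marker lists in each tumor, each row minus its mean over the 6 tumors (color scale and printed values, color limited at 3 on either side). In the rows of Cxcl2, Cxcl3, Clec4d and S100a9 and in the erythroid row, knockout tumors 1 and 2 (KO 1, KO 2) are the lowest, while the rows of Retnlg, Csf3r, Cxcl5 and the fibroblast markers are lowest in vector control tumor 1 (VC 1).

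Levels were also set against the leukocyte markers of the same tumor. This shifts the difference in mean log2 CPM between the groups by the same amount for every member. The edgeR fold changes above are estimated otherwise, and the ratios keep neither their order nor every sign. Cxcl5, for example, was at -0.52 by edgeR, while its ratio differed by 0.51. The log2 ratio of S100a9 to the mean of the 12 pan-leukocyte markers was -5.07 ± 0.174 in the control tumors and -6.80 ± 0.684 in the knockout tumors (SD, n = 3 per group, exact permutation p = 0.1). The ratio of Cxcl3 differed by -2.02 and that of S100a8 by -1.21, also with groups that did not overlap and an exact two-sided permutation p of 0.1, the smallest that 3 against 3 tumors can give. Over the 15 ratios compared the adjusted p of these 3 was 0.5. With 0.1 as the smallest possible p, no ratio could pass 0.05 whatever its values, so this decides nothing. In plain CPM the groups overlapped for Cxcl3 and S100a8. How many of all genes tested would not overlap as such a ratio was not computed. In plain CPM 29.7% of them did not overlap. The ratio of Csf3r differed by -0.12 (exact permutation p = 0.5) and that of Retnlg by 0.37 (exact permutation p = 0.7). Ratios of the 4 ligands to Cxcr2 overlapped between the groups and differed by 0.46 for Cxcl1, -0.79 for Cxcl2, -1.0 for Cxcl3 and 1.53 for Cxcl5 (exact permutation p of 0.7, 0.7, 0.6 and 0.4).

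Of the 11854 tested genes that averaged 2 CPM or more, those most like Cxcl2 over the 6 tumors by Pearson's r of log2 CPM were Tnfrsf26 (0.99), Ddit3 (0.99), Car9 (0.99) and Clec4e (0.99). Car9, the gene of a carbonic anhydrase known as a marker of low oxygen, was at 258, 165 and 130 CPM in the control tumors and 79.6, 66.3 and 198 CPM in the knockout tumors. Ddit3, a stress-response transcription factor gene, was at 91.4, 79.4 and 70.1 CPM and 54.7, 52.0 and 90.3 CPM. Neither gene was called (edgeR adjusted p = 0.489 and 0.535). Most like Csf3r were Tifab (0.99), Csf2ra (0.98), Myd88 (0.98) and Lst1 (0.98), of which Csf2ra encodes a receptor chain for GM-CSF on myeloid cells. Most like Cxcl1 were Txndc17, Xlr3a, Clint1 and Cd36 (0.99 each), and most like S100a8 were B3gat3 (0.99), Slc8b1 (0.98), Htra1 (0.98) and Ramac (0.95). These values of r rest on 6 tumors, rank the genes only and carry no p. The spread of Cxcl1 was no larger than counting noise (chi-square of 0.955 for each of 5 degrees of freedom). Its nearest genes therefore cannot be told from matches to counting noise. The S100a8 pattern rested on 4 to 25 counts per library, with the 4 in knockout tumor 2.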

How the data were processed

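Bulk RNA of 3 vector control and 3 ATM knockout B16 tumors was sequenced, and the authors deposited raw counts by gene. Per the submitters' processing notes, STAR, HTSeq, SAMtools, cutadapt and Trim Galore and the builds GRCm38 and mm10 were used (roles and versions unnamed). No source used here states the strand setting. Rows naming no gene were left out: no feature (16.7% to 18.2% of reads listed) and ambiguous (1.21% to 1.38%). The counter of multiply aligned reads is 0. All 55536 identifiers matched GENCODE M21, the source of coordinates and exon lengths.

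Counts were filtered with filterByExpr (minimum count 10, minimum total 15), scaled by TMM (factors 0.959 to 1.03) and tested with edgeR 4.0.16 (quasi-likelihood F test, robust, genotype as the only term) in R 4.3.3, with Benjamini-Hochberg adjustment over 15696 genes and a threshold of 0.05. Standard errors are the fold change divided by the root of F. Intervals are 95% intervals. Log2 CPM used a prior count of 2. Ratios were tested by exact permutation over 20 assignments, which cannot give a p below 0.1. Alternatives were RLE factors, library size alone, no filter, 1 CPM in 3 libraries, DESeq2 1.42.0, limma-voom (limma 3.58.1), non-robust dispersions, a replicate block, each tumor left out and, for ratios, a prior count of 0.5. The test was checked on simulated counts.

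Members, lists and the naming rule (all members, up to 4 genes a list by p, the 4 genes most like S100a8, Csf3r, Cxcl1 and Cxcl2 without predicted genes) were chosen with earlier results of these data known. Outside that rule, Cxcr1, Csf3, Clec4e, Prtn3, Padi4, Mmp9, Cd177, Ly6g, Ngp, Camp, Ltf, Elane and Mpo were named for their roles, after their values were seen. Cebpe was added so that every tested granule gene is named. Libraries within a group differed beyond counting noise (chi-square 21.2 to 80.0 for each degree of freedom), and each counted once. Of the other marker lists edgeR called 0 of 10 T cell, 0 of 9 endothelial, 0 of 5 mast cell and 0 of 3 eosinophil genes (6, 4, 1 and 0 at an unadjusted p below 0.05), where DESeq2 called 3, 1, 1 and 0 and limma-voom 0. At that unadjusted p all 6 T cell genes and the mast cell gene were higher in the knockout tumors. Of the 4 endothelial genes 3 were lower and 1 higher. Over all genes tested 23% had such a p, and edgeR, DESeq2 and limma-voom called 4.96%, 13.2% and 4.42%. Of 10 melanoma genes edgeR and limma-voom each called 1, Dct, lower, and DESeq2 called 4, Dct and Mc1r lower and Slc45a2 and Gpr143 higher.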

Additional observations from a re-analysis of the deposited data

How the results depend on the processing

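None of the 10 genes passed under any alternative (DESeq2 gave no adjusted p for 4), and 124 of 136 values of single genes under an alternative kept their sign. The other sign was taken by Csf3r with library size alone (0.018), limma-voom (0.075), the replicate block (0.10), and without vector control tumor 3 (0.51) or knockout tumor 2 (0.03). Cxcl5 took it with limma-voom (1.29), the block (0.13) and without vector control tumor 3 (0.88), and Retnlg without vector control tumor 1 (-0.42) or 2 (-0.10) or knockout tumor 2 (-0.22) or 3 (-0.08). With 1 tumor left out, Retnlg reached 1.37 (without vector control tumor 3) and Cxcl5 -1.56 (without knockout tumor 3). The median of the 10 genes lay between -1.60 and -0.38 with 1 tumor left out. Over all genes the 778 calls became 2070 with DESeq2 and 0 with the replicate block, and ranged from 2 to 1209 with 1 tumor left out. The cause was not tested. The labels do not say whether replicate numbers pair the tumors. Deviations from the group mean correlated at 0.04, -0.27 and -0.42 between same-numbered tumors. Between differently numbered tumors they correlated at -0.23 to 0.44. Deviations within a group sum to 0 and tumors differ in tissue mix, so these values cannot decide it. With a filter of 1 CPM in 3 libraries 6 of the 10 genes were tested. Counts of 1 to 26 for Cxcl3 and of 4 to 25 for S100a8 limit what these depths can show.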
